A study of Homo sapiens with 31 samples.

Results

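The genes described here encode proteins of the cytosolic ribosome or paralogs of these proteins. They were taken by symbol: every row named RPL or RPS plus a number, with an optional A, X, Y or L, and RPSA, RPLP0, RPLP1 and RPLP2, without the RPS6K kinases and without chromosome Y. Of 74834 rows in the table, 67 matched, 2 lay on chromosome Y, and 65 remained. 63 of the 65 had a mean of at least 10 normalized reads and were tested: 32 proteins of the large subunit (29 core proteins and the 3 stalk proteins RPLP0, RPLP1 and RPLP2), 26 of the small subunit and 5 paralogs (RPL7L1, RPL22L1, RPL26L1, RPL39L and RPS27L). The other 2, RPL3L and RPL10L, were near 0 in these cells. A further 19 ribosomal protein genes (14 of the large and 5 of the small subunit, such as RPL3, RPL4, RPSA and RPS2) share their row with a small RNA or a neighbouring gene. These joined rows are described apart from the 65.

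H460 is a line of human non-small cell lung cancer cells. Poly(A) RNA was sequenced after 6 h of treatment in 31 libraries, each made from 2 wells, and the study asked how the treatments change transcription in relation to cell death. The 8 groups were untreated cells (Control, n = 4), B87 at 1 µM (BAY87-2243, an inhibitor of mitochondrial complex I that lowers HIF-1 activity, n = 4), DMKG at 5 mM (dimethyl α-ketoglutarate, an ester of α-ketoglutarate that enters cells, n = 4), B87 + DMKG (n = 4), Nutlin-3 at 30 µM (n = 3), Rita at 50 µM (n = 4), and the triples of B87 + DMKG with Nutlin-3 (n = 4) or with Rita (n = 4) at those doses. Nutlin-3 occupies the site on MDM2 where p53 docks and so spares p53 from ubiquitination, and Rita binds p53 itself. All groups come from 1 cell line, and p-values measure only the spread between these libraries, which may be technical.

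Ribosomal proteins are made in matched amounts and joined to ribosomal RNA in the nucleolus, and their mRNAs are among the most abundant of a growing cell. Most of these mRNAs begin with a C and an unbroken run of pyrimidines, the 5′ terminal oligopyrimidine (TOP) motif, through which mTOR and LARP1 control their translation and stability. RPL5 and RPL11, in a particle with 5S ribosomal RNA, bind MDM2 when ribosome assembly fails. This links the family to MDM2, which Nutlin-3 binds, and to p53, which Rita binds.

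Starts of mRNAs that rose or fell are shown because they let a reader see the TOP motif beside the values; they are a choice among the genes with a start in the table, made after the values were seen, and not the largest changes in order. Each line gives 10 bases before the RefSeq start (GRCh38.p14) and 20 from it, 5′ to 3′ on the gene's strand, and capitals mark a C followed by at least 4 of C or T at the start itself. RPS23 (chr5:82278335-82278364, minus strand), RPL41 (chr12:56116623-56116652, plus) and RPS9 (chr19:54200848-54200877, plus) were lower under B87 + DMKG. RPL26 (chr17:8383174-8383203, minus), RPL27A (chr11:8682782-8682811, plus), RPS27 (chr1:153990752-153990781, plus) and RPS26 (chr12:56041908-56041937, plus) were higher. The paralogs RPS27L (chr15:63157458-63157487, minus) and RPL7L1 (chr6:42879606-42879635, plus) are shown for contrast.
RPS23: cggtgcttctCTCTTTCgctcaggcccgtg
RPL41: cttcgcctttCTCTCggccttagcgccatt
RPS9: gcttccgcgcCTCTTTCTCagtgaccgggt
RPL26: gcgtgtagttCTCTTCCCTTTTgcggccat
RPL27A: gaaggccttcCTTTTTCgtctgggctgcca
RPS27: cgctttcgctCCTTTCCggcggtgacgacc
RPS26: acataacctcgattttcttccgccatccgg
RPS27L: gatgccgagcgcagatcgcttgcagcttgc
RPL7L1: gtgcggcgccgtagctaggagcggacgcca

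Of the 63 tested genes, 50 had a start in the table, and 36 of these (72%) had such a tract at 1 or more starts, against 5.14% of all 27305 symbols in the table. The tract was found in 7 of 10 genes with a start that rose under B87 + DMKG, in 14 of 20 that fell and in 15 of 20 that did not pass the test. The shares were not tested against each other. RPS26, RPS27L and RPL7L1 had no tract at the listed start, which says only that these letters are not at that position.

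The libraries held 33.4 to 82.5 M whole reads (median 63.1 M). Mitochondrial genes took 1.33 to 2.48% of the reads in Control, B87 and DMKG libraries and up to 7.51% in B87 + DMKG, and these shares are given below where they moved with a result. The epithelial keratins stood high (KRT8 97329, KRT18 67024 and KRT19 96078 mean normalized reads in Control), while EPCAM (47.5) and CDH1 (2.21) were low. Of the markers of other cell types, 4 of 5 for fibroblasts, 2 of 5 for leukocytes and 1 of 4 for endothelium reached the mean of 10 needed for testing. Among them were COL1A1 (634), LUM (159), CD14 (213) and KDR (8.78) as Control means, the CD68 row is joined to EIF4A1, and PTPRC (2.74), CD3E (0), COL1A2 (1.40), PECAM1 (0) and CDH5 (0) were at or near 0. Ribosomal protein genes have many near-identical processed copies in the genome, so how reads were shared between gene and copy is uncertain, and levels are compared here only within a gene.

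The 65 genes took a larger part of the library wherever an MDM2 or p53 ligand was present, alone or with B87 + DMKG. They held 7.73% ± 0.425 (SD, n = 4) of all normalized reads in Control, 7.81% ± 0.199 (SD, n = 4) in B87 and 7.74% ± 0.538 (SD, n = 4) in DMKG. B87 + DMKG was at 7.38% ± 0.246 (SD, n = 4), within the range of DMKG. Nutlin-3 was at 8.69% ± 0.120 (SD, n = 3), Rita at 8.76% ± 0.413 (SD, n = 4), B87 + DMKG + Nutlin-3 at 8.69% ± 0.447 (SD, n = 4) and B87 + DMKG + Rita at 9.04% ± 0.0692 (SD, n = 4). All 3 Nutlin-3 libraries (8.57 to 8.81%), all 4 Rita libraries (8.35 to 9.16%) and all 4 B87 + DMKG + Rita libraries (8.97 to 9.13%) lay above the highest Control library (8.30%), whereas 1 B87 + DMKG + Nutlin-3 library (8.23%) did not. With the mitochondrial genes left out of the total, B87 + DMKG stood at 7.76% and Control at 7.87%. A share is relative, and in bulk RNA fewer cells and less RNA per cell cannot be told apart.

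**Figure D1:**
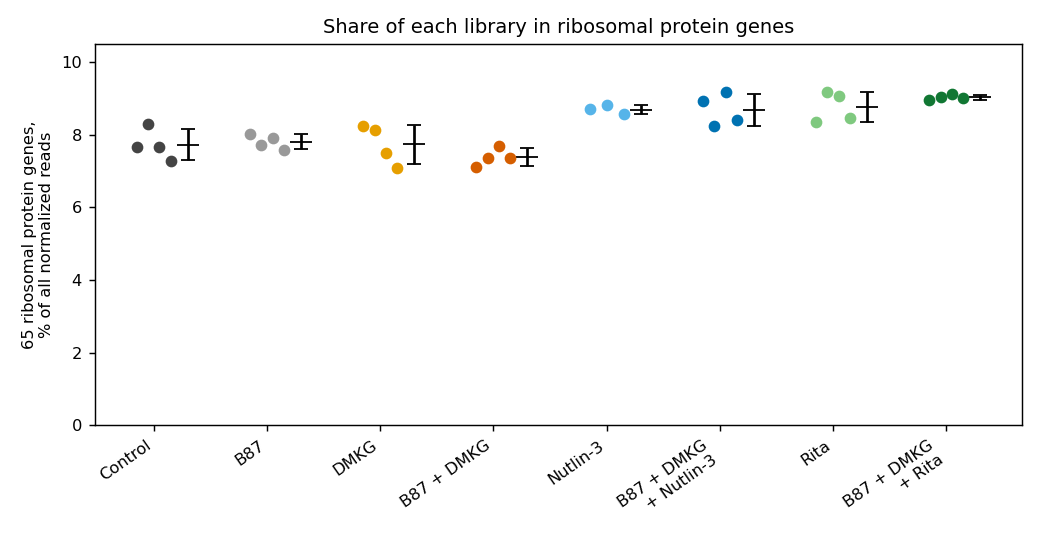
Percent of all normalized reads in the 65 ribosomal protein genes (vertical axis) for each library, by group. Points are libraries and bars the group mean with SD; the 4 libraries of B87 + DMKG + Rita sit between 8.97 and 9.13% and those of B87 + DMKG between 7.10 and 7.70%.

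Under B87 alone no ribosomal protein gene passed the test. limma called 0 of 63, where it called 0.0431% of all 16259 rows tested (0.0308% higher and 0.0123% lower). On the whole reads edgeR and DESeq2 also called 0. An unadjusted p under 0.05 in limma was found for 3 of the 63 genes and for 904 of the 16259 rows. The median log2 difference from Control was 0.03, and single genes lay between -0.14 and 0.26. The highest value was that of RPL39, a small protein of the exit tunnel, at 0.26 ± 0.09 (SE, limma adjusted p = 0.63).

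Under DMKG alone 9 genes rose and 1 fell, 10 of 63 against 41.4% of all rows called (19.6% higher and 21.8% lower). The median of the 63 was 0.13 and that of all rows 0.03. RPL22L1, the paralog of the large subunit protein RPL22, stood at 16724, 15775, 15713 and 13615 normalized reads in the 4 DMKG libraries and at 12009 to 12213 in Control. The groups did not overlap, and the log2 difference was 0.35 ± 0.11 (SE, limma adjusted p = 0.0090); RPL22 itself differed by 0.14 ± 0.07 (adjusted p = 0.13). RPS12 (0.30 ± 0.07, adjusted p = 0.0018), RPL31 (0.28 ± 0.08, adjusted p = 0.0054), RPL39, RPS28 and RPL34 were the next largest rises. The 1 fall was that of RPL7L1, the paralog of RPL7, from 5415 to 5766 reads in Control to 4625, 4527, 4163 and 3781 under DMKG (-0.41 ± 0.08 SE, adjusted p = 9.3e-05). All 4 DMKG libraries were below all 4 Control libraries.

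The number called under DMKG rests on single libraries. It was 18 without Control replicate 2 or without DMKG replicate 4, and 4 to 5 without Control replicate 1 or 4 or DMKG replicate 1 or 2. DMKG replicates 1 and 2 held 8.24 and 8.12% of reads in the 65 genes and replicates 3 and 4 held 7.51 and 7.09%. Scaled to the same total in every library, 3 genes rose and 2 fell, and after quantile normalization 1 rose and 5 fell, so the direction of the group under DMKG depends on the scaling.

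Under B87 + DMKG, 11 ribosomal protein genes rose and 26 fell. The 37 of 63 called are a share near the 61.0% of all rows called (30.2% higher and 30.8% lower), so the number called does not set these genes apart. The median of the 63 was -0.09 where that of all rows was 0.00. The values ran from -0.92 for RPL6 to 1.03 for RPS26. In the large subunit 6 of 32 genes rose and 12 fell, and in the small subunit 5 of 26 rose and 13 fell; the subunits were not tested against each other. The counts were the same with the same total in every library and 16 higher and 26 lower after quantile normalization. Without B87 + DMKG replicates 1 and 2, the libraries with the highest mitochondrial share (5.39 and 7.51%), 8 genes rose and 23 fell. The share of all rows called without them is not given here.

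RPS26, a small subunit protein at the mRNA exit channel (chr12:56435686-56438013, hg19), had the largest rise. It stood at 32552, 36100, 31782 and 28473 normalized reads in Control and at 59844, 70471, 65998 and 65636 under B87 + DMKG. The groups did not overlap, and the level was 2.04-fold higher (log2 1.03 ± 0.11 SE, limma adjusted p = 4.7e-09). RPL26, a large subunit protein (chr17:8280834-8286565, hg19), went from 102648 to 124991 reads in Control to 202728, 231916, 177765 and 157692 (0.77 ± 0.12, adjusted p = 1.2e-06). All 4 treated libraries lay above Control, and the lowest was replicate 4, which also had the lowest mitochondrial share of the group (2.24%). RPS4X, the X-linked form of the small subunit protein S4 (0.61 ± 0.09, adjusted p = 9.6e-07), RPL27A (0.60 ± 0.09, adjusted p = 5.7e-07), RPL12, a protein of the stalk base (0.38 ± 0.09, adjusted p = 0.00056), and RPS27 (0.33 ± 0.12, adjusted p = 0.017) followed. For RPS27, B87 + DMKG replicate 4 held 81016 reads, within the Control range of 73948 to 91773. Of the 11 genes that rose, 6 had no overlap between B87 + DMKG and Control. Overlap was not counted over all rows, so this number does not set the genes apart.

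RPL6, a large subunit protein (chr12:112842985-112856647, hg19), had the largest fall. Its Control libraries held 119329, 129926, 120892 and 116502 normalized reads and its B87 + DMKG libraries 64734, 67019, 64647 and 60541. Every treated library was below every Control library, and the level fell by 0.92 on the log2 scale (SE 0.09, limma adjusted p = 1.7e-10). RPS23, a small subunit protein at the decoding centre (chr5:81569141-81574235, hg19), held 98048, 108641, 97792 and 94587 reads in Control and 50932, 50077, 61059 and 54444 under B87 + DMKG (-0.88 ± 0.09, adjusted p = 7.6e-10). RPL7L1 (-0.85 ± 0.08, adjusted p = 1.4e-10), RPL7 (-0.82 ± 0.08, adjusted p = 5e-10), RPL9 (-0.73 ± 0.09, adjusted p = 5.3e-08) and RPL41, a very short protein at the subunit interface (-0.67 ± 0.10, adjusted p = 6.5e-07), fell as well. Of the 26 genes that fell, 22 had no overlap between the groups, again without a count over all rows to set beside it.

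The stalk proteins, which bring the elongation factors to the ribosome, did not pass the test under B87 + DMKG: RPLP0 differed by 0.01 ± 0.06 (limma adjusted p = 0.89), RPLP1 by -0.05 ± 0.09 (adjusted p = 0.66) and RPLP2 by -0.22 ± 0.11 (adjusted p = 0.096). The partners of 5S ribosomal RNA parted. RPL5 held 72193 to 83312 reads in Control and 59852, 58066, 61514 and 47729 under B87 + DMKG, with no overlap (-0.43 ± 0.08, adjusted p = 1.3e-05). RPL11 held 71876 to 81347 in Control and 80599, 85312, 87520 and 88187 under B87 + DMKG (0.19 ± 0.07, adjusted p = 0.022), and 1 treated library overlapped Control. RPS6, the ribosomal substrate of the S6 kinases (-0.26 ± 0.07, adjusted p = 0.0024), and RPS27A, made as a fusion with ubiquitin (-0.36 ± 0.10, adjusted p = 0.0017), fell, and RPS3, at the mRNA entry channel, rose (0.23 ± 0.08, adjusted p = 0.016).

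B87 + DMKG differed from the sum of the B87 and DMKG differences in 30 of 63 genes, against 48.8% of all rows called (24.6% higher and 24.1% lower). 26 were lower than the sum and 4 higher, with a median of -0.20 for the 63 and 0.02 for all rows. RPS26 exceeded the sum by 0.96 ± 0.16 (limma adjusted p = 1.1e-05), RPL26 by 0.57 ± 0.16 (adjusted p = 0.0049), RPL27A by 0.43 ± 0.12 (adjusted p = 0.0045) and RPS4X by 0.31 ± 0.13 (adjusted p = 0.044). RPS23 fell short of it by 1.08 (-1.08 ± 0.13, adjusted p = 3.4e-08), RPL7 by 0.98 (-0.98 ± 0.11, adjusted p = 3.1e-08) and RPL41 by 0.97 (-0.97 ± 0.14, adjusted p = 1.1e-06). Scaled to equal totals, 6 exceeded the sum and 25 fell short. After quantile normalization the split was 15 above and 20 below.

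**Figure D2:**
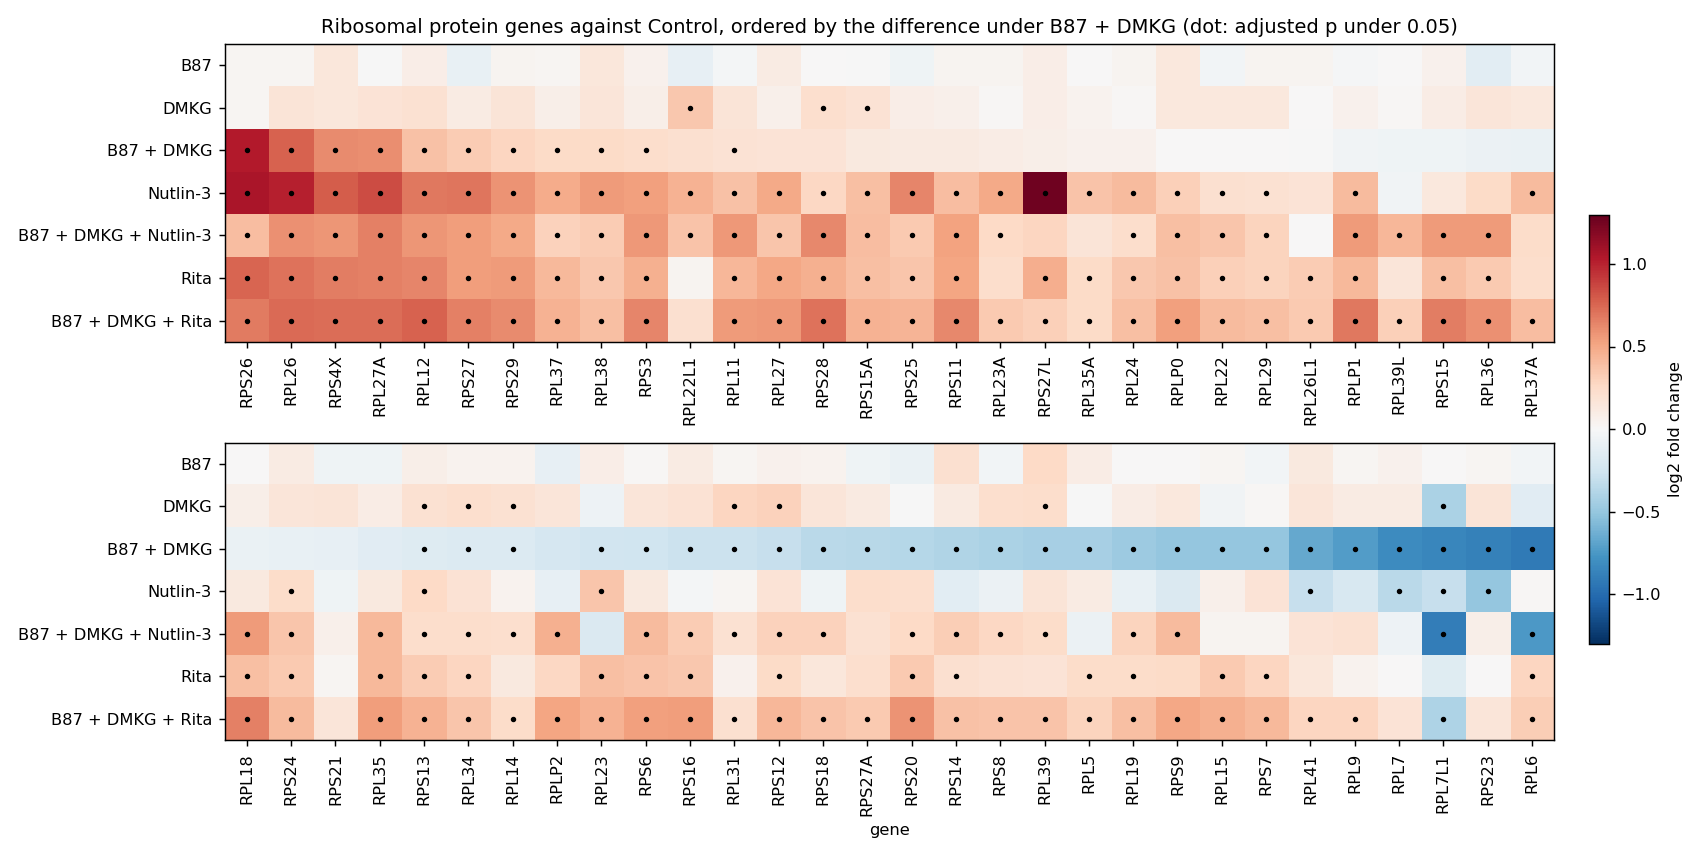
Log2 fold change against Control (colour) of 60 of the 63 tested genes (columns, ordered by the difference under B87 + DMKG and broken over both panels) in 7 treatments (rows); a dot marks an adjusted p under 0.05 in limma. The B87 + DMKG row runs from 1.03 for RPS26 to -0.92 for RPL6, the B87 row has no dot, and 55 of 60 columns in the B87 + DMKG + Rita row are higher with a dot.

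Nutlin-3 alone raised 31 genes and lowered 5, 36 of 63 against 39.1% of all rows called (18.5% higher and 20.7% lower). The median of the 63 was 0.22 and that of all rows -0.01. RPS27L, the paralog of RPS27 and a known target of p53 (chr15:63445539-63449741, hg19), rose furthest. It held 3919, 4488, 4121 and 3701 normalized reads in Control and 7873, 10296 and 11295 under Nutlin-3. The groups lay far apart, and the level was 2.4-fold higher (log2 1.26 ± 0.13 SE, limma adjusted p = 1.1e-08). MDM2, itself a p53 target, rose by 3.47 in the same libraries. RPS26 (1.06 ± 0.12, adjusted p = 4.7e-08), RPL26 (1.01 ± 0.12, adjusted p = 2e-07), RPL27A (0.85 ± 0.09, adjusted p = 2.2e-08) and RPS4X (0.79 ± 0.10, adjusted p = 1.6e-07) were further large rises.

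The genes that fell under Nutlin-3 included RPS23 (-0.50 ± 0.10, limma adjusted p = 0.0001), RPL7 (-0.35 ± 0.09, adjusted p = 0.0016), RPL41 (-0.30 ± 0.10, adjusted p = 0.025) and RPL7L1 (-0.30 ± 0.08, adjusted p = 0.0056). RPS23 held 81402, 68620 and 62327 reads in the 3 Nutlin-3 libraries, all below the lowest Control library (94587). RPL41 held 108099 in replicate 1, within the Control range of 106773 to 133371, and 98291 and 82150 in replicates 2 and 3. The mitochondrial share was 2.42, 4.33 and 5.39% in replicates 1 to 3. With 1 library the standard error is larger whatever the effect, so the number called from replicate 1 alone against Control is not read here. That fit assumes that replicate 1 varies like the other groups, and its count is not given. The part of the mitochondrial share in these values was not tested. Nutlin-3 shares its Control libraries with B87 + DMKG, where RPS23 was at -0.88, RPL7 at -0.82, RPL41 at -0.67 and RPL7L1 at -0.85. Under equal library totals 25 rose and 8 fell, and after quantile normalization 23 rose and 12 fell.

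Rita raised 44 of the 63 genes and lowered 0, against 52.1% of all rows called (25.8% higher and 26.3% lower). The median of the 63 was 0.34 and that of all rows 0.03. An unadjusted p under 0.05 in limma was found for 50 of the 63 genes and for 9248 of all 16259 rows. RPS26 held 43674, 49506, 52945 and 77084 normalized reads in the 4 Rita libraries, all above the highest Control library (36100). The difference was 0.76 ± 0.11 (SE, limma adjusted p = 1.3e-06), and replicate 4, with the highest mitochondrial share of the group (4.76% against 2.69 to 2.93%), was the highest. RPL26 (0.71 ± 0.12, adjusted p = 6.1e-06), RPS4X (0.67 ± 0.09, adjusted p = 3.1e-07), RPL27A (0.65 ± 0.09, adjusted p = 2.1e-07), RPL12 (0.63 ± 0.09, adjusted p = 8.5e-07) and RPS29 (0.55 ± 0.08, adjusted p = 2.4e-06) followed. RPL5 (0.24 ± 0.08, adjusted p = 0.0089), RPL11 (0.43 ± 0.07, adjusted p = 9.7e-06) and RPS27L (0.47 ± 0.12, adjusted p = 0.0018) rose as well. Equal library totals moved the median of all rows to -0.15; under them 25 genes rose and 1 fell, and after quantile normalization 23 rose and 2 fell. All 4 Rita libraries had a mitochondrial share (2.69 to 4.76%) above the highest Control library (2.15%), and its part in these rises was not tested.

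The cells given B87 + DMKG with an MDM2 or p53 ligand had most of these genes above Control. With Nutlin-3 added, 46 of 63 rose and 2 fell (median 0.32, all rows 0.02), against 58.0% of all rows called (28.3% higher and 29.7% lower). With Rita added, 58 rose and 1 fell (median 0.43, all rows 0.01), against 60.1% of all rows called (29.4% higher and 30.7% lower). Under equal library totals the counts became 24 higher and 5 lower with Nutlin-3 and 31 higher and 1 lower with Rita, and after quantile normalization 21 higher and 7 lower, and 27 higher and 2 lower. A factor per library moves all its genes alike, so the difference between the median of the 63 and that of all rows, 0.29 with Nutlin-3 and 0.43 with Rita, is by construction the same under the authors' scaling and the same total. It was -0.01 and 0.11 after quantile normalization, which works by rank. Of the 63 genes, 24 stand among the 100 rows with the highest mean. The part of rank in the smaller difference was not tested.

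Other measures moved in the same libraries. The mitochondrial share was 3.34 to 3.67% with Nutlin-3 and 2.47 to 3.33% with Rita, all above the highest Control library (2.15%). Of the 4 tested epithelial markers, 3 rose with Nutlin-3 and 4 with Rita, and the 5 markers together held 346823 to 416564 normalized reads with Nutlin-3 and 345486 to 393491 with Rita, against 245626 to 279907 in Control. Of the 4 tested fibroblast markers, 1 rose with Nutlin-3 and 2 with Rita, and the 4 in rows of their own summed to 857 to 1021 and 1052 to 1137 reads, against 773 to 837 in Control. Leukocyte markers in rows of their own summed to 215 to 274 and 170 to 249 reads (202 to 248 in Control), and the endothelial markers to 8.57 to 16.4 and 5.66 to 19.3 (9.55 to 21.4 in Control). The part of these in the rises of the ribosomal protein genes was not tested.

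**Figure D3:**
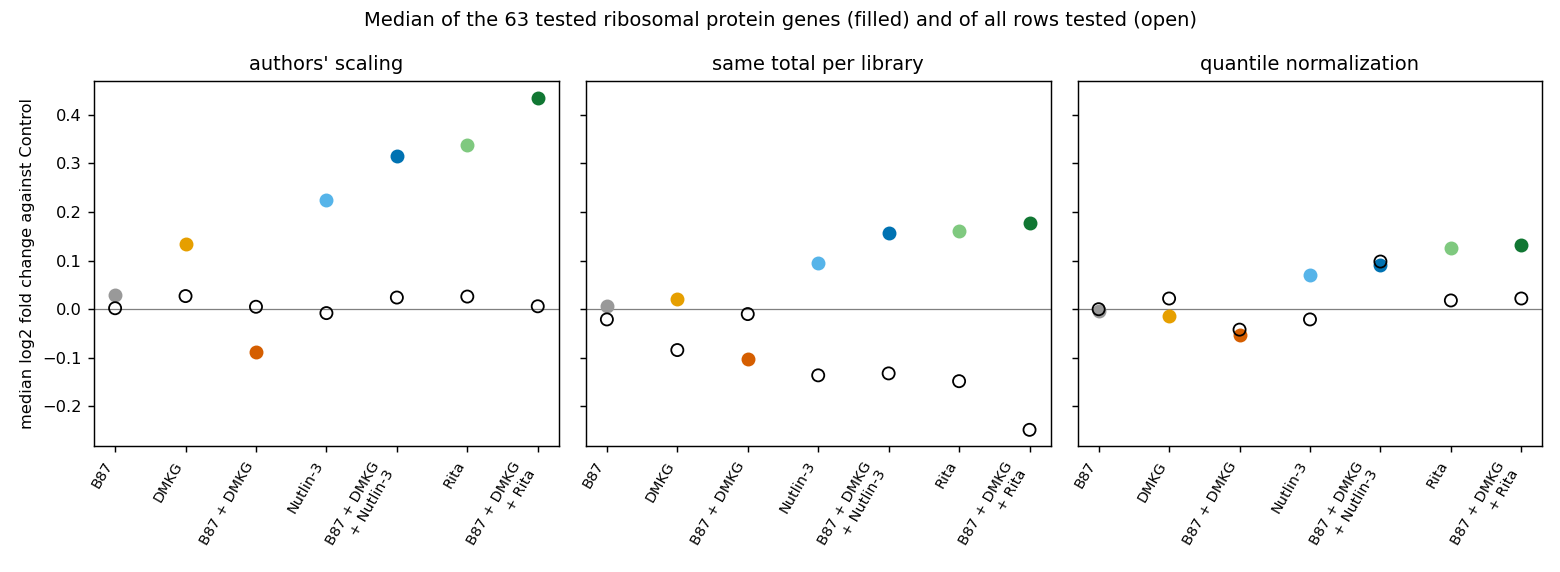
Median log2 fold change against Control (vertical axis) of the 63 tested genes (filled) and of all rows tested (open), by treatment, under 3 scalings of the libraries. Under the authors' scaling B87 + DMKG + Rita stands at 0.43 and B87 + DMKG at -0.09; the gap between filled and open points is by construction the same in the left and middle panels and is smaller for both triple treatments in the right panel.

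RPS28 (0.71 ± 0.09, limma adjusted p = 3.5e-08) joined RPL12 (0.77 ± 0.09, adjusted p = 1.4e-08), RPL26, RPS4X and RPL27A among the largest rises of B87 + DMKG + Rita over Control. The stalk proteins rose in both triple treatments: RPLP0 by 0.39 and 0.53, RPLP1 by 0.55 and 0.69, and RPLP2 by 0.46 and 0.51 with Nutlin-3 and Rita. RPL11 was higher in both, by 0.56 ± 0.07 (adjusted p = 7.1e-08) with Nutlin-3 and 0.55 ± 0.07 (adjusted p = 8.3e-08) with Rita. RPL5 differed by -0.08 ± 0.08 (adjusted p = 0.38) with Nutlin-3 and rose by 0.29 ± 0.08 (adjusted p = 0.0015) with Rita, though that rise did not hold with the same total (0.03) and turned to -0.04 after quantile normalization.

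Against B87 + DMKG itself, adding Nutlin-3 raised 42 of 63 genes and lowered 1 (58.9% of all rows called, 26.5% higher and 32.3% lower), with a median of 0.39 where all rows had -0.05. Adding Rita raised 54 and lowered 1 (67.3% of all rows called, 33.1% higher and 34.2% lower), with a median of 0.51 where all rows had 0.00. Both comparisons use the same 4 B87 + DMKG libraries. Without B87 + DMKG replicates 1 and 2 the counts were 47 higher and 1 lower with Nutlin-3 and 56 higher and 1 lower with Rita. The shares of all rows called without these libraries are not given here. RPS23 returned to 108142, 102760, 110104 and 99350 reads with Nutlin-3 and 113939, 106156, 115393 and 110168 with Rita, all within or above the Control range. Its rise over B87 + DMKG was 1.95-fold with Nutlin-3 (log2 0.96 ± 0.09 SE, limma adjusted p = 2e-10) and 2.06-fold with Rita (1.05 ± 0.09, adjusted p = 1.5e-11). RPL9 (0.93 and 1.01), RPS9 (0.91 and 1.00) and RPL41 (0.85 and 0.95) rose likewise with Nutlin-3 and Rita. The largest rise with Rita was that of RPL6 (1.24), which did not pass with Nutlin-3 (0.17). Equal library totals gave 39 higher and 4 lower, and 40 higher and 3 lower, and after quantile normalization 32 and 9, and 36 and 5.

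RPS26 was the 1 gene that fell when either ligand was added to B87 + DMKG. It held 47300, 37359, 45686 and 40077 normalized reads with Nutlin-3 and 50954, 52613, 48885 and 53404 with Rita, below the lowest B87 + DMKG library (59844) and above the highest Control library (36100). The fall was 0.62 with Nutlin-3 (-0.62 ± 0.11 SE, limma adjusted p = 2.3e-05) and 0.35 with Rita (-0.35 ± 0.11, adjusted p = 0.0079). RPL26, RPS4X and RPL27A, the next largest rises under B87 + DMKG, did not pass the test in either comparison, with values between -0.18 and 0.13. Under equal library totals RPL26 passed as lower, by -0.32 with Nutlin-3 and -0.28 with Rita.

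Both triple treatments were also set against each other, a comparison added after the values were seen. B87 + DMKG + Rita was higher than B87 + DMKG + Nutlin-3 in 12 genes and lower in 0, against 48.3% of all rows called (24.5% higher and 23.8% lower). The median was 0.12 where all rows had 0.01. An unadjusted p under 0.05 in limma was found for 14 of the 63 genes and for 8701 of all 16259 rows. edgeR and DESeq2 also called 12. RPL6 stood apart. It held 76876, 67943, 76577 and 67983 normalized reads with Nutlin-3 and 152629, 146533, 153364 and 153406 with Rita. The Nutlin-3 libraries stayed near B87 + DMKG (60541 to 67019), while the Rita libraries exceeded the highest Control library (129926), and the triples differed 2.10-fold (log2 1.07 ± 0.09 SE, limma adjusted p = 4.5e-12). The difference of the Rita triple from Control, 0.32 ± 0.09 (adjusted p = 0.0020), was 0.06 under equal library totals and -0.05 after quantile normalization. RPL23 (0.64 ± 0.09, adjusted p = 3.4e-07), RPL7L1 (0.50 ± 0.08, adjusted p = 2.4e-06), RPL15 (0.43 ± 0.07, adjusted p = 1.5e-05), RPS7 (0.38 ± 0.09, adjusted p = 0.00035) and RPL5 (0.37 ± 0.08, adjusted p = 0.00014) were next. In none of the 12 did the groups overlap, but the 12 were picked by the test and overlap was not counted over all rows. Under equal library totals 8 were higher and 1 lower.

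RPL7L1 stayed below Control in both triples. It held 2943, 3146, 2704 and 3309 normalized reads with Nutlin-3 and 4472, 4303, 4396 and 3933 with Rita, against 5415 to 5766 in Control. None of these libraries reached the Control range, and the differences were -0.90 ± 0.08 (SE, limma adjusted p = 2.1e-11) and -0.40 ± 0.08 (adjusted p = 4.9e-05). RPL6 was the other gene below Control with Nutlin-3 (-0.75 ± 0.09, adjusted p = 7.9e-09). RPS27L, so high under Nutlin-3 alone, held 5199, 4514, 5164 and 4753 reads in B87 + DMKG + Nutlin-3, and its difference from Control was 0.28 ± 0.12 (adjusted p = 0.056). MDM2 rose by 1.15 over Control in those libraries.

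**Figure D4:**
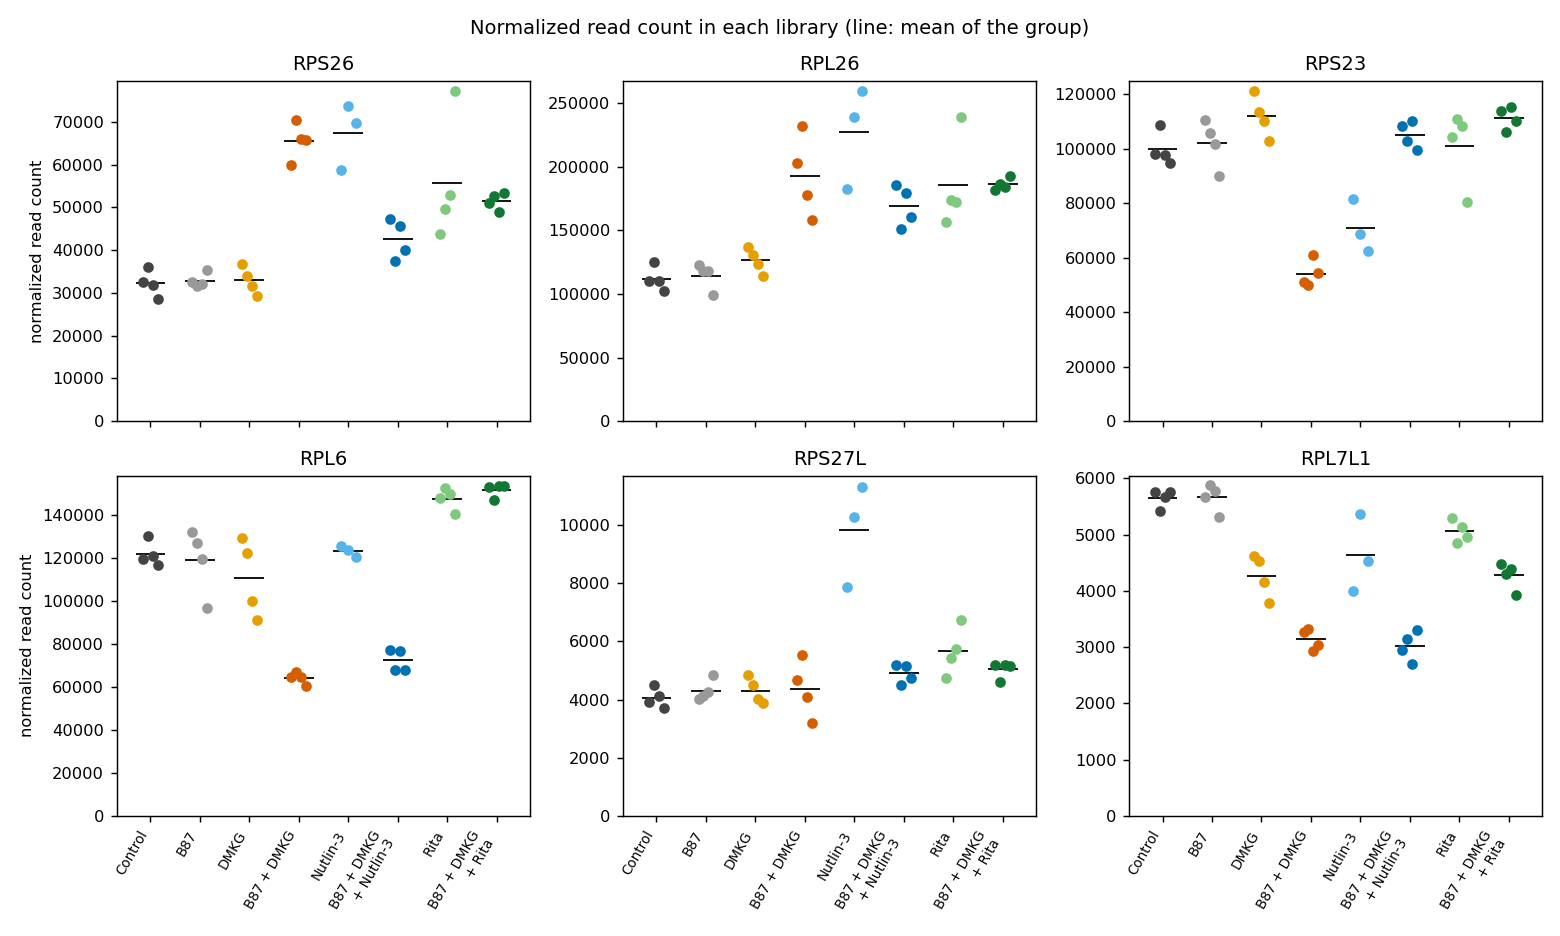
Normalized read counts (vertical axes, each from 0) of RPS26, RPL26, RPS23, RPL6, RPS27L and RPL7L1 in every library, by group; lines are group means. RPS26 is high under B87 + DMKG and Nutlin-3, RPS23 is low in the same groups, and RPL6 is low in B87 + DMKG and B87 + DMKG + Nutlin-3 but not in B87 + DMKG + Rita.

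The ratio of RPS26 to RPS23 within a library is not changed by a scaling factor per library, though quantile normalization, which works by rank, can change it; the pair was chosen after its values were seen and is given without a test. It was 0.301 to 0.332 in Control, 0.294 to 0.393 in B87 and 0.285 to 0.304 in DMKG. Under B87 + DMKG it was 1.17, 1.41, 1.08 and 1.21, and under Nutlin-3 0.721, 1.08 and 1.12. Both groups lay wholly above the other 3. Rita libraries 1 to 3 had 0.419, 0.447 and 0.489 and library 4 had 0.960. The triples were lower again, at 0.364 to 0.437 with Nutlin-3 and 0.424 to 0.496 with Rita. Libraries with a mitochondrial share above 4% all had a ratio above 1 except Rita 4 (0.960), but B87 + DMKG replicate 4 had 1.21 at a share of 2.24%. The part of the mitochondrial share in the ratio was not tested.

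**Figure D5:**
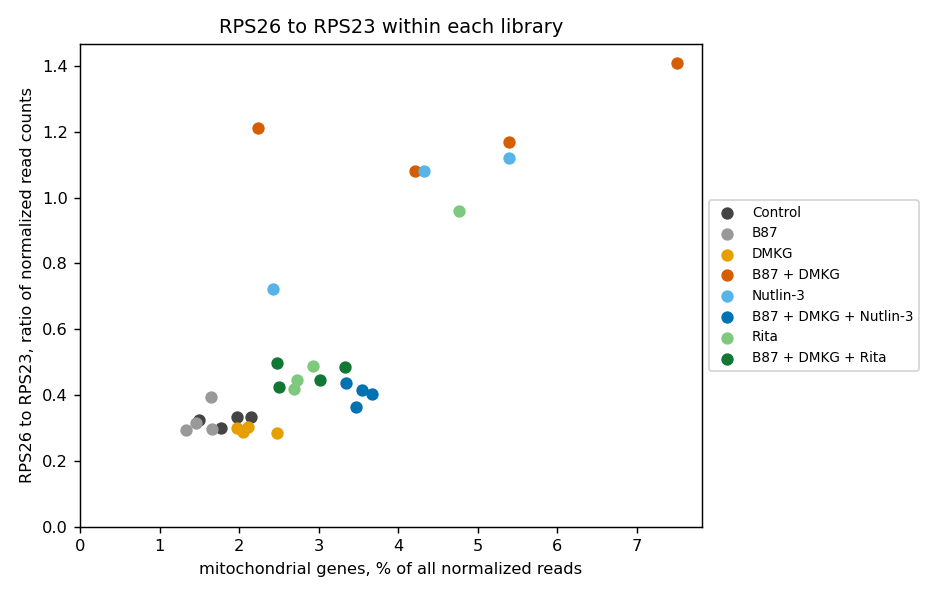
Ratio of RPS26 to RPS23 normalized read counts (vertical axis) against the percent of reads from mitochondrial genes (horizontal axis), 1 point per library, coloured by group. B87 + DMKG (1.08 to 1.41) lies above every Control library (0.301 to 0.332), also in its library with a mitochondrial share of 2.24%.

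The 19 joined rows are given with the limit that a neighbour's reads are in them, and they were not tested against the 63. Under B87 + DMKG 1 rose and 7 fell, 8 of 19 where 61.0% of all rows were called: the row of RPL28 rose by 0.94 ± 0.11 (SE, limma adjusted p = 2.8e-08), and the rows of RPS19 (-0.62 ± 0.16, adjusted p = 0.0011), RPSA (-0.53 ± 0.10, adjusted p = 2.9e-05), RPL3 (-0.42 ± 0.08, adjusted p = 5e-05) and RPL4 (-0.40 ± 0.06, adjusted p = 8e-07) were among those that fell. The RPS19 row held 24209, 28100, 40352 and 51719 reads under B87 + DMKG, and the last lay within Control (48977 to 59329). Under Nutlin-3 9 rose and 0 fell (39.1% of all rows called), with an unadjusted p under 0.05 in limma in those 9 and in 7656 of all 16259 rows. Under B87 + DMKG + Rita all 19 rose, from 0.31 to 0.85 (60.1% of all rows called).

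The mitochondrial ribosome, whose 70 tested protein genes serve a separate translation system, was counted in the same way. Under B87 + DMKG 14 rose and 29 fell (median -0.11), 43 of 70 where 61.0% of all rows were called. Under Nutlin-3 20 rose and 12 fell (median -0.02, 39.1% of all rows called), and under B87 + DMKG + Rita 29 rose and 5 fell (median 0.18, 60.1% of all rows called). The difference between the 2 families was not tested.

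Other mRNAs with known or likely TOP motifs, among them the elongation factors, were counted from a list of 21 of which 20 were tested. Under B87 + DMKG 2 rose and 10 fell (median -0.20), 12 of 20 and so near the 61.0% of all rows called (30.2% higher and 30.8% lower). NAP1L1, a histone chaperone, differed by -0.67, EIF4B, an initiation factor, by -0.62 and EIF3L, a subunit of another one, by -0.56. Under Nutlin-3 12 rose and 1 fell (39.1% of all rows called), and under Rita 8 rose and 2 fell (52.1%). Over B87 + DMKG, 17 rose and 1 fell when Nutlin-3 was added (58.9% of all rows called) and 16 rose and 1 fell when Rita was added (67.3%). EEF1B2, an exchange factor for EEF1A, rose by 0.54 and 0.94 and EEF1D by 0.92 and 0.88.

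Of 12 tested genes that govern ribosomal protein supply, 3 rose and 4 fell under B87 + DMKG, 3 rose and 6 fell under B87 + DMKG + Nutlin-3, and 4 rose and 5 fell under B87 + DMKG + Rita. Of all rows, 61.0%, 58.0% and 60.1% were called in these comparisons. RPTOR, the mTOR complex 1 scaffold, was lower under B87 + DMKG (-0.79), Rita (-2.10) and B87 + DMKG + Rita (-2.23). LARP1 rose by 0.60 under B87 + DMKG and by 0.82 under Nutlin-3 and was lower in the triples with Nutlin-3 (-0.82) and Rita (-0.52). MYC, a transcription factor that drives ribosomal protein genes, rose by 1.00 under B87 + DMKG + Rita, and its difference with Nutlin-3 in its place was 0.12, which did not pass.

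Of 10 tested chaperones and assembly factors of single ribosomal proteins, 1 rose and 7 fell under B87 + DMKG, where 61.0% of all rows were called (30.2% higher and 30.8% lower), a background that holds for the next 2 counts as well. IPO5, an importin that carries ribosomal proteins, differed by -0.74 and HEATR3, which brings in RPL5, by -0.53. Of 7 tested genes tied to p53 and the 5S particle, 3 rose and 2 fell under B87 + DMKG; MDM2 fell by 0.68. RPF2 and RRS1, which load the 5S particle, were lower in B87 + DMKG + Nutlin-3 (-1.27 and -0.98). Of 11 tested genes of ribosome rescue and quality control, 2 rose and 8 fell under B87 + DMKG: ABCE1, which recycles ribosomes, differed by -1.53, HBS1L, which rescues stalled ones, by -1.89 and RNF14 by -1.81, while NEMF rose by 1.19. ABCE1 (-3.03) and HBS1L (-3.72) were lower still against Control in B87 + DMKG + Nutlin-3, and with Rita in its place they were at -0.54 and -0.22.

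The mean profile of the 63 genes over the 8 group means was compared with every tested row. Among rows with a symbol, outside the 63 and the joined rows, the most alike were MGST3 (r = 0.996), TMSB10 (r = 0.993) and S100P (r = 0.988). Of all tested rows, the 100 with the highest r held 11 of the 63 and 7 joined rows. 34 of the 63 had an r of at least 0.8 with their own mean, the median was 0.81 and the lowest -0.06. Each gene is part of that mean, which raises its r, and the share of all rows with such an r is not given. These are descriptions over 8 points that share libraries and scaling.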

How the data were processed

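H460 poly(A) RNA was made into stranded TruSeq libraries, per the labels' protocols. The submitters' processing notes list STAR 2.4.0, SAMtools, Picard, FastQC and DESeq2; for strand use in counting and the remaining versions, nothing is given in the sources used. File positions are on hg19, which the table's header names for its human genes, although the notes say mm10. The deposited signal is a read count per gene that the authors divided by a size factor per library. Each of the 690132 values above 0 was a whole multiple of its library's step (100% within 0.1 step), so whole reads were recovered for the count tests. Even values made up 55.8 to 59.2% of the lower counts, so some reads may have been counted in pairs.

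Groups came from the labels. limma 3.58.1 in R 4.3.3 (trend, all 31 libraries, 8 group means, 23 residual degrees of freedom) was fitted to log2(value + 1) of the 16259 rows with a mean of at least 10, with Benjamini-Hochberg adjustment over all rows and a threshold of 0.05 in each of 11 comparisons. Fold changes are on that log2(value + 1) scale. Alternatives were count tests on whole reads (DESeq2 1.42.0, edgeR 4.0.16), other pseudocounts, filters and scalings, a replicate block, the compared groups alone and libraries left out.

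Genes named per comparison came from the 6 largest called rises and falls and from a fixed set with RPL5, RPL11, the paralogs and the stalk proteins. Not all of these are named in every comparison. Up to 4 called genes were named per list. Other genes, the RPS26 to RPS23 ratio and the comparison of both triples were chosen after their values were seen. Genes and lists were chosen with earlier results of these data known. Shares of reads and scores over the family were given no p. A few genes are not reported here by name; the counts include them.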

Additional observations from a re-analysis of the deposited data

Results flagged for a closer look

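In 5 of 140 groups of values looked at, 1 library lay far from the other 3 of its group; chance gives about 1 in 20. RPL41 stood at 118034 normalized reads in DMKG replicate 4 and at 135003 to 137239 in the other 3 libraries. RPL11 stood at 61964 in B87 replicate 4 and at 77151 to 77760 in the others. B87 + DMKG + Rita replicate 2 was low for RPL6 (146533 against 152629 to 153406) and for RPS27L (4617 against 5164 to 5192). The ratio of RPS26 to RPS23 was 0.96 in Rita replicate 4 and 0.419 to 0.489 in the others.

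By a test of the difference itself, B87 + DMKG departed from the sum of its parts in 30 of the 63 genes, a share near the 48.8% of all rows called. The triple with Rita differed from the triple with Nutlin-3 in 12 of the 63, below the 48.3% of all rows called.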

How the results depend on the processing

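Calls were compared under each alternative. The shares of all rows called are those of the main fit, so counts under an alternative have no background beside them. The number called under DMKG (10) was 6 without a filter on low values and after quantile normalization, 5 with the same total in every library, 4 without DMKG replicates 1 and 2, 16 without replicates 3 and 4, and 4 to 18 with 1 library left out. For Nutlin-3 (36), replicate 1 alone is a group of 1 library with less power, so no count is given. Under quantile normalization and the same total, the counts were 25 and 26 for Rita (44), 28 and 29 for B87 + DMKG + Nutlin-3 (48), and 29 and 32 for B87 + DMKG + Rita (59). Fitted on the compared groups alone, B87 + DMKG + Rita against B87 + DMKG + Nutlin-3 gave 19 in place of 12. With mitochondrial rows left out the shares of reads were 7.76% in B87 + DMKG, 9.06% in Nutlin-3 and 9.30% in B87 + DMKG + Rita.

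Of 396 single-gene results, quantile normalization turned the direction of 20. These were, with Nutlin-3 added to B87 + DMKG, RPL12 (-0.21), RPL23 (-0.22), RPL27A (-0.28), RPL5 (-0.02) and RPL6 (-0.20); with Rita added, RPL12 (-0.05), RPL27A (-0.26) and RPS27 (-0.06); in B87 + DMKG + Nutlin-3 against Control, RPL15 (-0.22), RPL19 (-0.12) and RPS7 (-0.18); in B87 + DMKG + Rita against Control, RPL19 (-0.10), RPL31 (-0.08), RPL41 (-0.09), RPL5 (-0.04), RPL6 (-0.05), RPL7 (-0.20) and RPL9 (-0.09); under Rita, RPL19 (-0.09); and under Nutlin-3, RPL6 (-0.19). It also turned the median of the 63 under DMKG (-0.01) and beyond the sum (0.01). The same total turned RPL31 in B87 + DMKG + Rita (-0.04). The cause was not tested. edgeR and DESeq2 turned no direction and moved 6 and 3 of the 396 across the threshold. Replicate numbers did not pair the libraries (105 same-numbered pairs, median r of -0.003, 6 over 0.1); with the replicate block 37 genes were called under B87 + DMKG, 11 under DMKG, 36 under Nutlin-3, 47 under Rita and 60 in B87 + DMKG + Rita. All but DMKG kept their counts within 1.5 times with 1 library left out.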
